A study of Mus musculus with 14 samples.

Results

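Glycerolipid and triglyceride assembly was followed in mouse liver through 8 enzymes and related proteins of the pathway, namely Gpam, Agpat2, Lpin1, Lpin2, Dgat1, Dgat2, Mogat1 and Pnpla3. Each gene is read from a probe set annotated with its symbol alone, and where several exist, from the brightest by its mean over all 14 arrays. All 8 genes were found among the 22180 genes with a probe set of their own. Hepatic RNA came from male C57Bl/6J mice made obese on a diet with 60% fat (HFD), begun at 6 weeks of age and kept for 4 weeks, which all 3 groups share. Control mice stayed on the HFD for 4 more weeks (4 arrays). A second group had canagliflozin, an inhibitor of the renal glucose transporter SGLT2, with the HFD over the same time (5 arrays), at 30 mg/kg in the sample labels and 25 to 30 mg/kg in the treatment protocol. The remaining group stayed on the HFD over the same time with its calories cut by 15 to 30%, to match its weight to that of the drug-treated mice (5 arrays). There was no lean group, and the feeding state and hour at collection were not given in the sources used here. Values are log2 probe set signals, so 1 unit is a doubling, and they are compared between arrays for 1 gene and never between genes.

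Triglyceride is built in the endoplasmic reticulum by adding fatty acids, activated as acyl-CoA, to a glycerol backbone one after another. Glycerol 3-phosphate is acylated to lysophosphatidate and then phosphatidate, a phosphatase removes the phosphate to leave diacylglycerol, and a final acylation gives triglyceride. Phosphatidate and diacylglycerol are also the branch points towards phospholipids, and in liver the finished triglyceride is stored in droplets or secreted in very low density lipoprotein (VLDL).

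The arrays resembled each other closely, with Pearson's r between 0.986 and 0.992 for every pair over the 22180 genes and array medians between 4.07 and 4.13 over all probe sets. Replicates 1, 2 and 3 of the canagliflozin group had a lower mean r with their own group than with the other groups, and replicate 3 had the lowest of all within its group (0.988, against 0.989 with the others). Without that array 12 genes, in place of 0, passed limma's adjusted threshold for canagliflozin against HFD controls, and 16 in place of 1 against caloric restriction, so Lpin2 and Dgat2 are given with and without it. Hepatocyte markers (Alb, Apoa1, Ttr, Serpina1c and Cyp2e1) had mean log2 values from 13.37 to 13.45 on every array, and the labels name hepatic tissue. The adipocyte markers measured, 5 of 6, were Adipoq, Plin1, Lep, Retn and Cidec. Their mean log2 values were 4.00 to 4.28 in HFD controls, 3.83 to 4.40 with canagliflozin and 3.93 to 4.33 under caloric restriction. Means of macrophage markers spread more widely, at 6.31 to 7.37, 6.78 to 7.26 and 6.17 to 7.10 in the same order of groups. Further cell type lists were scored and are not printed here. In such bulk tissue, fewer cells of a type and less RNA per cell cannot be told apart.

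None of the 8 genes passed limma's test at a Benjamini-Hochberg adjusted p of 0.05 in any of the 3 comparisons. The clearest difference in value was in Lpin2, a phosphatidate phosphatase, which was 1.36-fold higher with canagliflozin than in HFD controls and 1.25-fold higher than under caloric restriction. Dgat2, which makes triglyceride from diacylglycerol, was 1.12-fold lower with canagliflozin than under caloric restriction, a small difference in which the groups did not overlap. In that comparison 109 of 22180 genes (0.491%) lay wholly lower. For the other 6 genes, and for Dgat2, the 95% confidence interval of every comparison included 0.

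Against HFD controls, 5 of the 8 genes were higher in value with canagliflozin and 3 were lower, with a median log2 fold change of 0.11 against -0.00085 over all genes tested. For that comparison 0 of 22180 genes (0%) passed limma's adjusted threshold, while 1444 genes (6.51%) had an unadjusted p under 0.05, among them 1 of the 8, Lpin2. None of the 8 had groups that did not overlap there, which 219 genes (0.987%) did as higher and 214 (0.965%) as lower with canagliflozin. Under caloric restriction 6 of the 8 were higher in value than in the same HFD controls and 2 were lower, with a median of 0.10 against 0.0016 over all genes. There too 0 genes (0%) passed by limma, and 872 (3.93%) had an unadjusted p under 0.05, none of them among the 8. Again the groups overlapped for all 8, while 156 genes (0.703%) lay wholly higher and 154 (0.694%) wholly lower under restriction. Between canagliflozin and caloric restriction 3 of the 8 were higher and 5 lower in value, with a median of -0.07 against -0.0032 over all genes. In that comparison 1 gene (0.00451%), Rtkn, passed by limma (log2 fold change -0.63 ± 0.09; adjusted p = 0.0264), and 1341 (6.05%) had an unadjusted p under 0.05, with Lpin2 again the 1 gene among the 8. There the groups did not overlap for 1 of the 8, Dgat2, as lower. Over all genes, 97 (0.437%) lay wholly higher and 109 (0.491%) wholly lower with canagliflozin than under restriction. The first and second comparisons share their control arrays, so their values for a gene are not independent.

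**Figure D1:**
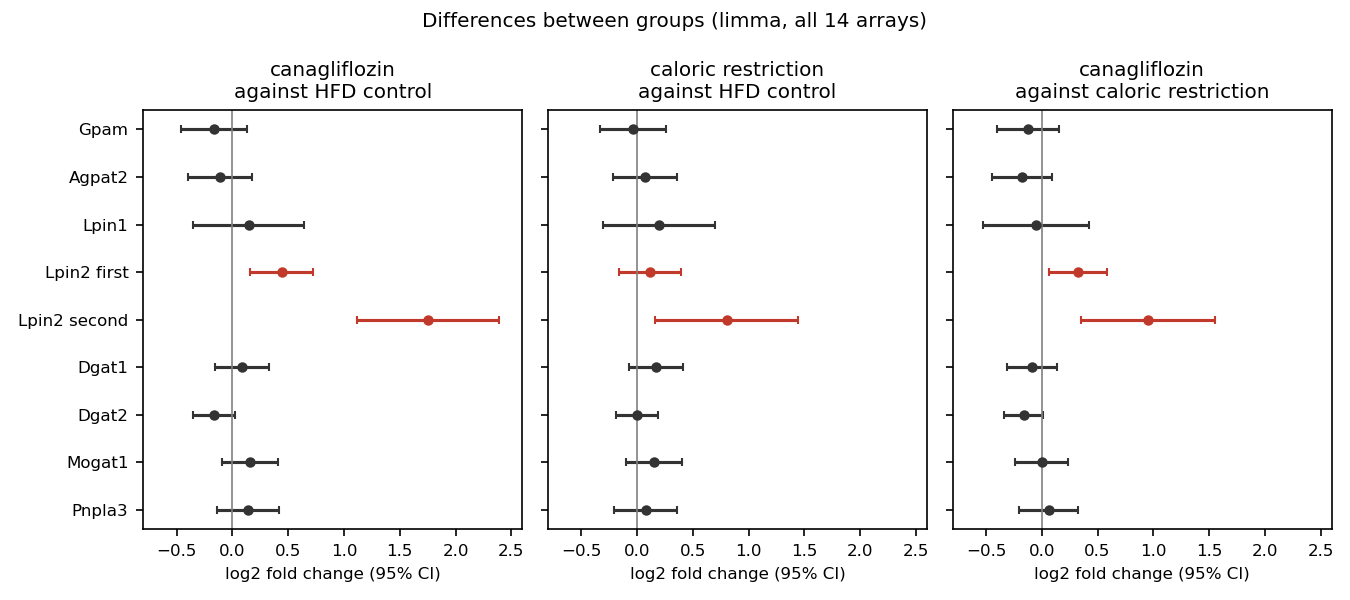
Log2 fold changes (x axis) of the 8 genes (y axis) in the 3 comparisons, with points for the limma estimate and bars for its 95% confidence interval. A further row holds the second Lpin2 probe set. The first Lpin2 set has an interval above 0 for canagliflozin against HFD control (0.16 to 0.72) and against caloric restriction (0.06 to 0.59). Intervals of the second set lie above 0 for both (1.11 to 2.39 and 0.35 to 1.55). For caloric restriction against HFD control the second set also lies above 0 (0.16 to 1.44), whereas the first crosses 0. Those of every other gene cross 0.

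Gpam (chromosome 19, bases 55067635 to 55127319 in GRCm38.p6) encodes the mitochondrial acyltransferase that adds the first fatty acid to glycerol 3-phosphate. Its log2 values were 9.72, 10.00, 10.40 and 10.12 in HFD controls, 9.66, 9.99, 10.26, 9.78 and 9.77 with canagliflozin, and 10.12, 10.11, 9.77, 9.95 and 10.15 under caloric restriction. The 3 groups overlapped, and the highest value in the canagliflozin group was that of replicate 3. The log2 fold change for canagliflozin against HFD controls was -0.16 ± 0.14 (SE; limma adjusted p = 0.890), and against caloric restriction it was -0.13 ± 0.13. Caloric restriction and HFD controls differed by -0.039 ± 0.14, with a 95% confidence interval of -0.34 to 0.26.

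Agpat2 (chromosome 2, bases 26593057 to 26604417) encodes the acyltransferase that turns lysophosphatidate into phosphatidate, and its loss in people causes lipodystrophy. Mean log2 values were 10.09 ± 0.16 (SD, n = 4) in HFD controls, 9.98 ± 0.16 (SD, n = 5) with canagliflozin and 10.16 ± 0.29 (SD, n = 5) under caloric restriction. The widest spread was under caloric restriction, where replicates 1 and 4 reached 10.49 and 10.43 and the other 3 lay between 9.88 and 10.07. The log2 fold changes were -0.11 ± 0.14 for canagliflozin against HFD controls (limma adjusted p = 0.937), 0.069 ± 0.14 for caloric restriction against HFD controls and -0.18 ± 0.13 for canagliflozin against caloric restriction, all within the spread between arrays.

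The next step, from phosphatidate to diacylglycerol, is catalysed by the lipins, which also act in the nucleus as partners of transcription factors. Lpin1 (chromosome 12, bases 16535669 to 16653903) is the lipin known for its response to fasting, glucocorticoids and the coactivator PGC-1α in liver. Its log2 values were 11.17, 10.46, 11.16 and 11.31 in HFD controls, 11.22, 11.47, 10.59, 11.69 and 10.91 with canagliflozin, and 11.04, 10.95, 10.87, 11.30 and 11.96 under caloric restriction. The lowest array was an HFD control and the highest a calorically restricted mouse, and all 3 groups overlapped.

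Lpin1 was the most variable of the 8 genes as read by the rule, with a within-group SD of 0.425, larger than that of 98.2% of all genes, whose median was 0.178. Its log2 fold changes were 0.15 ± 0.24 for canagliflozin against HFD controls (95% confidence interval -0.35 to 0.65; limma adjusted p = 0.957), 0.20 ± 0.24 for caloric restriction against HFD controls (-0.30 to 0.70) and -0.052 ± 0.22 between the treatments (-0.52 to 0.42). Neither the first nor the last has a settled sign. The first was -0.042 without replicate 2 of the HFD controls. The last was 0.13 without replicate 5 of caloric restriction, and it was 0.095 and 0.015 without replicates 3 and 5 of canagliflozin.

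Lpin2 (chromosome 17, bases 71183532 to 71249818) encodes a lipin that is abundant in liver. Its log2 values were 10.35, 10.29, 10.62 and 10.41 in HFD controls. They were 10.72, 11.02, 10.51, 11.14 and 10.90 with canagliflozin, and 10.44, 10.70, 10.21, 10.64 and 10.69 under caloric restriction. In the canagliflozin group 4 of 5 arrays lay above every HFD control and above every calorically restricted mouse, and the exception was replicate 3 at 10.51.

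Mean Lpin2 values were 10.42 ± 0.15 (SD, n = 4) in HFD controls, 10.86 ± 0.25 (SD, n = 5) with canagliflozin and 10.53 ± 0.21 (SD, n = 5) under caloric restriction. Canagliflozin against HFD controls gave a log2 fold change of 0.44 ± 0.13 (SE; 95% confidence interval 0.16 to 0.72), with an unadjusted limma p of 0.00392 and an adjusted p of 0.580. By unadjusted p it ranked 147 of the 22180 genes in that comparison. Canagliflozin against caloric restriction gave 0.32 ± 0.13 (0.06 to 0.59), with an unadjusted limma p of 0.0189 and an adjusted p of 0.801. Caloric restriction against HFD controls gave 0.12 ± 0.13 (-0.16 to 0.40; limma adjusted p = 0.999), with 3 of 5 arrays above every control and 1 below every control. Without replicate 3 of the canagliflozin group, the difference was 0.53 from HFD controls (limma adjusted p = 0.193) and 0.41 from caloric restriction (adjusted p = 0.388), still short of the threshold. These were the largest values with single arrays left out, and the smallest were 0.37 and 0.24. With each probe set fitted on its own, the interval against caloric restriction included 0 without replicate 4 of canagliflozin (-0.01 to 0.52). It also did so without replicate 3 of restriction (-0.02 to 0.50).

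**Figure D2:**
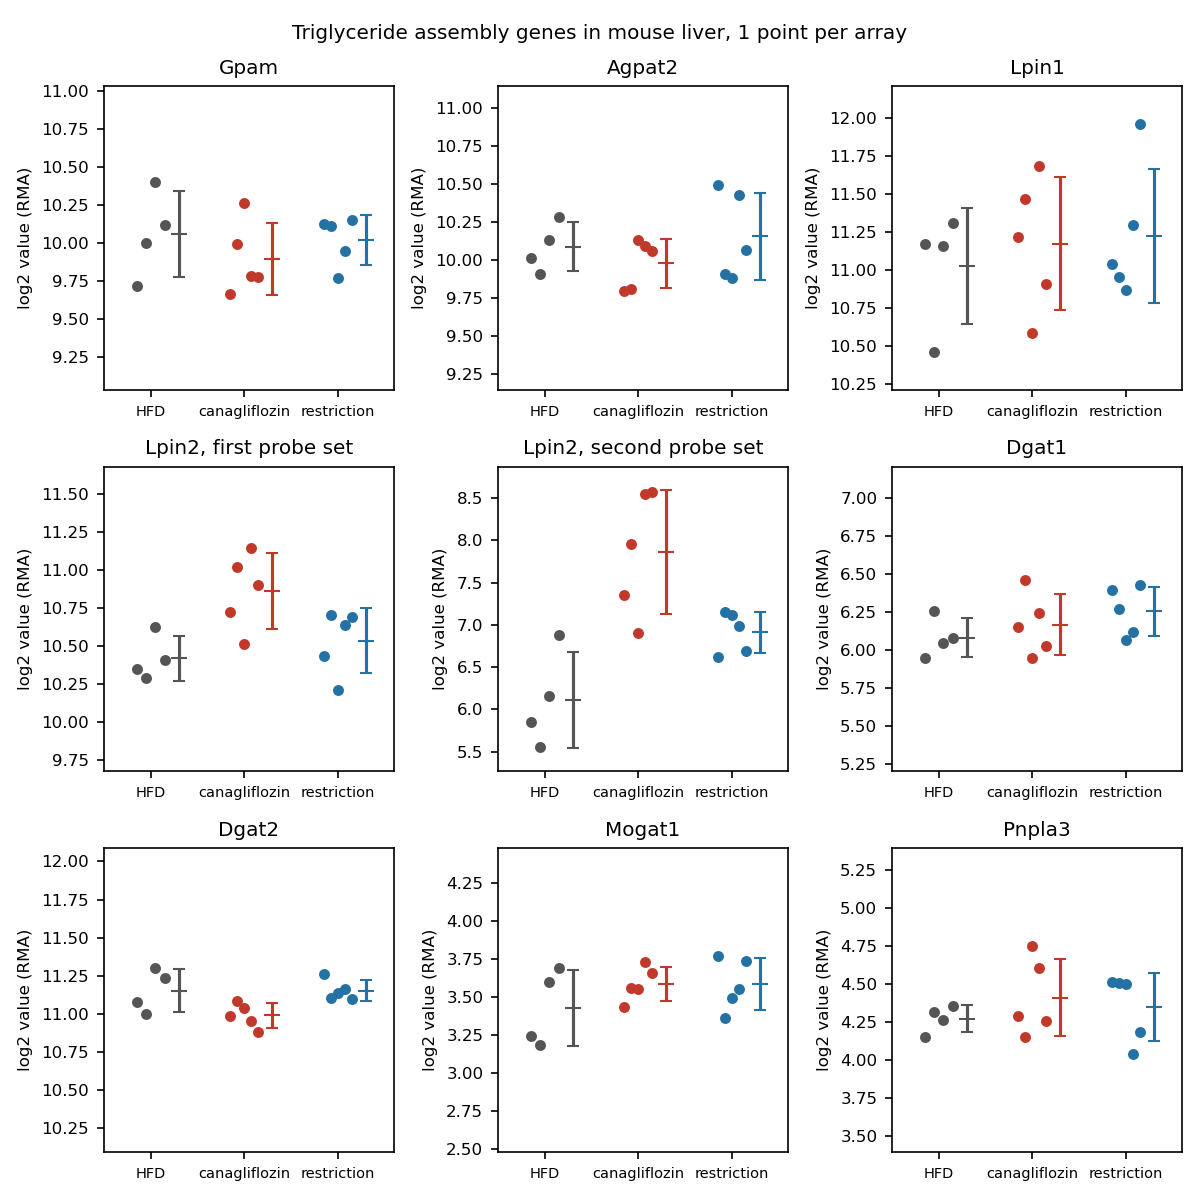
Log2 values (y axis) of the 8 genes in each of the 14 arrays, by group (x axis), with points for arrays and bars for the group mean ± SD, and with a panel of its own for the second Lpin2 probe set. The first Lpin2 probe set has 4 of 5 canagliflozin arrays above all others, Dgat2 has all 5 canagliflozin arrays below all 5 calorically restricted ones, and the second Lpin2 probe set has the widest spread within the HFD and canagliflozin groups, followed by Lpin1.

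A second probe set is annotated to Lpin2 alone. It was not the one taken by the rule, its mean being lower, and it was examined after its values were seen. Its log2 values were 5.85, 5.56, 6.16 and 6.88 in HFD controls, 7.35, 7.95, 6.90, 8.54 and 8.57 with canagliflozin, and 6.63, 7.15, 7.12, 6.98 and 6.69 under caloric restriction. Every canagliflozin array lay above every HFD control, with replicate 3 at 6.90 barely above the highest control at 6.88. When each of the 23521 probe sets with 1 symbol was fitted on its own, 229 (0.974%) lay wholly above the controls in this way.

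For the second probe set the difference between canagliflozin and HFD controls was 1.75 ± 0.30 on the log2 scale (SE; 95% confidence interval 1.11 to 2.39), which is 3.37-fold. Its unadjusted limma p of 2.07e-05 ranked 3 of 23521 probe sets, and its adjusted p was 0.149, so it did not pass. Caloric restriction was 0.80 ± 0.30 above HFD controls (1.74-fold, 95% confidence interval 0.16 to 1.44), with 3 of 5 arrays above every control. Its unadjusted limma p of 0.0169 ranked 268 of 23521 probe sets, and its adjusted p was 0.999. With single arrays left out, the difference of caloric restriction from HFD controls ran from 0.62 to 1.06. Without replicate 2 of the HFD controls its interval included 0 (-0.06 to 1.30). Canagliflozin was 0.95 ± 0.29 above caloric restriction (1.93-fold, 95% confidence interval 0.35 to 1.55), with 4 of 5 arrays above every restricted mouse. There the unadjusted limma p was 0.00394 and the adjusted p 0.702. Leaving out 1 array at a time moved the difference of canagliflozin from HFD controls between 1.57 and 2.01. The adjusted limma p was 0.0101 without replicate 3 of the canagliflozin group, 0.0582 without replicate 4 of the HFD controls and up to 0.644 otherwise, so the call turns on which arrays are kept.

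Both Lpin2 probe sets ordered the group means alike, with canagliflozin highest and HFD controls lowest, and the second differed more. Across the 14 arrays their r was 0.79 and their Spearman's rho 0.76. After the group means were removed r was 0.55, which is given as a description, since points share arrays and groups. Where the probes of each set lie in the Lpin2 transcripts was not given in the sources used here, and whether the larger difference belongs to 1 transcript was not tested. When the mean of both probe sets stood for the gene, the difference from HFD controls was 1.10 for canagliflozin (limma adjusted p = 0.140) and 0.46 for caloric restriction, and it was 0.64 between the treatments.

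**Figure D3:**
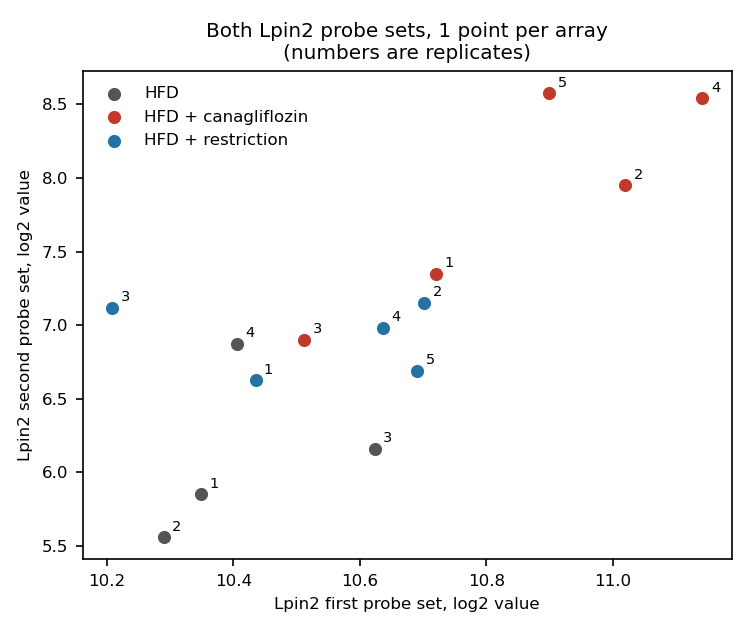
Log2 values of the 2 probe sets annotated to Lpin2 in each of the 14 arrays, coloured by group, with the set taken by the rule on 1 axis and the second set on the other. The 5 canagliflozin arrays run from 6.90 to 8.57 on the second set, and replicate 3 is the lowest of them on both.

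RefSeq lists several start sites for Lpin2, whose windows are shown here with that of Lpin1 because the 2 probe sets of the gene differed by unequal amounts and the windows differ in composition. Each sequence covers 250 bases before and 50 after an annotated start site in GRCm38.p6, written in the direction of the gene, and capitals mark a match to a searched motif.
Lpin2, chr17:71183282-71183581, plus strand: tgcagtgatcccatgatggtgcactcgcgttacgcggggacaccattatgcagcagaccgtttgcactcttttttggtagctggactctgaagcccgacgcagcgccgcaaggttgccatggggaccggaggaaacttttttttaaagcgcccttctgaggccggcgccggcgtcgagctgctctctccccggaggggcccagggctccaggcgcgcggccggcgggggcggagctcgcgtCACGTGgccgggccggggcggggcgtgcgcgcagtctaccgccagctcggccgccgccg
Lpin2, chr17:71183728-71184027, plus strand: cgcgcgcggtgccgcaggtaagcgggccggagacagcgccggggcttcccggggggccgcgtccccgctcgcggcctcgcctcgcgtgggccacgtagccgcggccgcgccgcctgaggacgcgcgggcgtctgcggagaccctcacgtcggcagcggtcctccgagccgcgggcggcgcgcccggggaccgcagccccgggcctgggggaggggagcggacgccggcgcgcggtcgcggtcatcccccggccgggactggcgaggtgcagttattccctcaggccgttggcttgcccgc
Lpin2, chr17:71204404-71204703, plus strand: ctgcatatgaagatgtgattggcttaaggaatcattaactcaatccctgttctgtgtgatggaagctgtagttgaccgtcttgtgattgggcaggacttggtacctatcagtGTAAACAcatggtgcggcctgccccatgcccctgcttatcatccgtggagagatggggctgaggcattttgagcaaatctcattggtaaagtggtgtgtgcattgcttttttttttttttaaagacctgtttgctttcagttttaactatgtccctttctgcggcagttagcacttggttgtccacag
Lpin1, chr12:16610917-16611216, minus strand: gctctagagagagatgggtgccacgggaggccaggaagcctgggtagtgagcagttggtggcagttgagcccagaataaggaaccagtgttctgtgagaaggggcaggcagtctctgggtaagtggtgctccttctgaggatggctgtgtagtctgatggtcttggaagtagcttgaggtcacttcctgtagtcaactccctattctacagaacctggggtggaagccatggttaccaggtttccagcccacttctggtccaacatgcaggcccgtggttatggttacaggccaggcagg

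The upstream Lpin2 window has a G and C content of 68.7% with 37 CpG pairs, and the next has 80.7% with 54, whereas the downstream one has 45.0% with 4. The capitals in the first are the E-box CACGTG, which begins 9 bases before the start site and occurs on either strand in 7.15% of 32851 mouse promoter windows of this length. Those in the downstream window are the forkhead motif GTAAACA, 138 bases before the start site, found in 3.65% of windows. The second Lpin2 window and the Lpin1 window held no match. That Lpin1 window surrounds a start site inside the span of the gene given above, so the upstream end of the span was not searched. The other motifs searched on both strands were the cAMP response element TGACGTCA (1.79% of windows), the sterol regulatory element TCACNCCAC (1.24%), the direct repeat of the nuclear receptor core motif (0.0396%) and the palindromic glucocorticoid response element (0.00913%). Of the 8 genes, 6 had an entry among the RefSeq promoter windows, with 9 windows in all, and Dgat1 and Dgat2 had none. The 1 further match was a cAMP response element 46 bases before the start site of Pnpla3. A match describes these letters only, and no binding was measured.

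The last acylation is carried out by a pair of unrelated enzymes, of which Dgat2 handles mostly newly made fatty acids in liver. Dgat2 (chromosome 7, bases 99153663 to 99182713) had log2 values of 11.07, 11.00, 11.30 and 11.23 in HFD controls, 10.99, 11.09, 11.04, 10.95 and 10.88 with canagliflozin, and 11.26, 11.10, 11.13, 11.16 and 11.10 under caloric restriction. The highest canagliflozin array, at 11.09, lay just under the lowest calorically restricted one, at 11.10, so these groups did not overlap. Over all genes, 109 (0.491%) lay wholly lower in this way.

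Dgat2 was also the steadiest of the 8 genes, with a within-group SD of 0.0965, and 4.11% of all genes varied less. Canagliflozin against caloric restriction gave a log2 fold change of -0.16 ± 0.08 (SE; 95% confidence interval -0.34 to 0.01), with an unadjusted limma p of 0.0651 and an adjusted p of 0.828. Canagliflozin against HFD controls gave -0.16 ± 0.09 (-0.35 to 0.02; limma adjusted p = 0.796), with 3 of 5 arrays below every control. Caloric restriction against HFD controls gave -0.00077 ± 0.09 (-0.19 to 0.18). Without replicate 3 of the canagliflozin group the difference was -0.18 from HFD controls and -0.18 from caloric restriction.

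Dgat1 (chromosome 15, bases 76502012 to 76512021) encodes the other enzyme, which also re-esterifies fatty acids from outside the cell. Mean log2 values were 6.08 ± 0.13 (SD, n = 4) in HFD controls, 6.17 ± 0.20 (SD, n = 5) with canagliflozin and 6.26 ± 0.16 (SD, n = 5) under caloric restriction. Arrays ran from 5.95 to 6.46 and the groups overlapped. The log2 fold changes were 0.084 ± 0.11 for canagliflozin against HFD controls (limma adjusted p = 0.943), 0.17 ± 0.11 for caloric restriction against HFD controls (adjusted p = 0.999) and -0.089 ± 0.11 between the treatments. Dgat1 and Dgat2 had opposite signs for canagliflozin against HFD controls, and neither passed the test.

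Mogat1 (chromosome 1, bases 78511060 to 78606964) encodes an acyltransferase that makes diacylglycerol from monoacylglycerol and so bypasses the phosphatidate route. It was dim, with log2 values from 3.19 to 3.77, below the median of every array, and its signal over background was not analysed. The means were 3.43 ± 0.25 (SD, n = 4) in HFD controls, 3.59 ± 0.11 (SD, n = 5) with canagliflozin and 3.58 ± 0.17 (SD, n = 5) under caloric restriction. The treated groups differed from HFD controls by 0.16 ± 0.12 (canagliflozin; limma adjusted p = 0.876) and 0.15 ± 0.12 (caloric restriction; adjusted p = 0.999), and the 95% confidence interval between the treatments was -0.24 to 0.24.

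Pnpla3 (chromosome 15, bases 84167776 to 84189521) encodes a droplet protein with lipase and acyltransferase activities that is induced by feeding and is tied to fatty liver in people. Its log2 values were 4.15, 4.32, 4.26 and 4.36 in HFD controls, 4.29, 4.15, 4.75, 4.61 and 4.25 with canagliflozin, and 4.51, 4.51, 4.50, 4.04 and 4.18 under caloric restriction. These lie near the array medians, and replicate 3 was again at the edge of the canagliflozin group, here as its highest value. The log2 fold changes were 0.14 ± 0.13 for canagliflozin against HFD controls (limma adjusted p = 0.902), 0.076 ± 0.13 for caloric restriction and 0.062 ± 0.12 between the treatments, all with intervals that cross 0.

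The 8 genes varied together only in part. Over the 14 arrays and after removal of group means, 23 of the 28 pairs had a positive r, and 5 were above 0.5. The shares over all pairs of genes were not computed, so these counts have no background beside them. The strongest pair was Lpin1 with Lpin2 (0.69), followed by Agpat2 with Mogat1 (0.66), Gpam with Dgat2 (0.58), Dgat2 with Mogat1 (0.55) and Lpin1 with Mogat1 (0.52). The lowest was Lpin1 with Pnpla3 (-0.44). Mogat1 is dim, and its pooled r with Lpin1 fell from 0.54 to 0.22 without the 2 arrays farthest from the median of Lpin1. For Lpin1 with Lpin2 the pooled r was 0.54 and Spearman's rho was 0.52. Beside that, 442 of 6142 genes had a higher pooled r with Lpin2 than Lpin1 had. The rank of Lpin1 with Lpin2 rests on the Lpin2 probe set taken by the rule. With the second set r was 0.38 after removal of group means, 0.32 pooled, and rho was 0.22. All points share arrays, RNA preparations and normalisation, so these values describe this set of livers, and no test is attached.

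**Figure D4:**
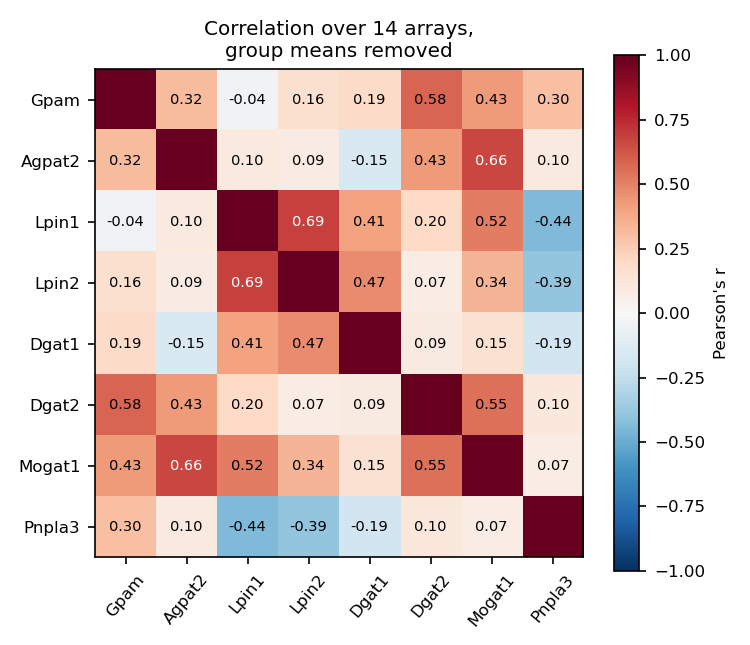
Pearson's r between each pair of the 8 genes over the 14 arrays after removal of group means, on a colour scale from -1 to 1. Lpin1 and Lpin2, read from its first probe set, form the strongest pair at 0.69, and Lpin1 and Pnpla3 the lowest at -0.44.

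Around these genes, 54 further genes of the pathway were listed by step, and 48 had a probe set of their own. With canagliflozin 20 of the 48 were higher in value than in HFD controls and 28 were lower, with a median log2 fold change of -0.04. None passed limma's adjusted threshold. By unadjusted p under 0.05 there were 2 higher genes, against 3.21% of all genes, and 2 lower ones, against 3.3%. Both directions together made 8.33% of the 48, against 6.51% of all genes. Under caloric restriction 26 were higher and 22 lower, with a median of 0.01, 0 passing and 0 at an unadjusted p under 0.05 by limma, against 2.06% of all genes higher and 1.87% lower. Between the treatments 15 were higher and 33 lower with canagliflozin, with a median of -0.06 and 4 at an unadjusted p under 0.05 by limma, 2 in each direction, against 3.07% of all genes higher and 2.98% lower. Those 4 made 8.33% of the 48, against 6.05% of all genes.

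The pair that was higher with canagliflozin than in HFD controls at an unadjusted p under 0.05 were both microsomal glycerol 3-phosphate acyltransferases, which act at the same step as Gpam. Gpat4 had log2 values of 9.56, 9.47, 9.32 and 9.06 in HFD controls and 9.66, 10.20, 9.53, 9.81 and 9.39 with canagliflozin, where 3 of 5 lay above every control. The difference was 0.36 ± 0.15 (unadjusted limma p of 0.0275, adjusted p of 0.731), and against caloric restriction it was 0.36 ± 0.14 (adjusted p = 0.801). Gpat3 differed by 0.36 ± 0.16 from HFD controls (5.88 ± 0.27 against 5.52 ± 0.21 as mean log2 values; limma adjusted p = 0.751) and by 0.29 ± 0.15 from caloric restriction. Gpam, of the opposite sign, stood at -0.16 against HFD controls. The other 6 acyltransferases listed for these steps were lower in value, by at most 0.11.

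Among the enzymes that supply the pathway, Gpd1, which makes glycerol 3-phosphate from a glycolytic intermediate, differed by -0.11 ± 0.17 with canagliflozin from HFD controls and by -0.21 ± 0.16 from caloric restriction. Of the 5 acyl-CoA synthetases listed, which activate fatty acids, 3 were measured. Acsl1 and Acsl3 had no probe set of their own, nor had Gk of the glycerol 3-phosphate supply. With canagliflozin, Acsl4 was 0.34 ± 0.15 above caloric restriction (unadjusted limma p of 0.0397, adjusted p of 0.811), and Acsl5 was at -0.22 ± 0.13 against HFD controls. Of the 6 other phosphatidate phosphatases, Lpin3 included, 5 were lower in value with canagliflozin than in HFD controls, with log2 fold changes from -0.16 to 0.01. Lpin2 stood at 0.44 in that comparison, and the difference between genes was not tested.

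On the phospholipid side, Pemt, which makes phosphatidylcholine by methylation in liver, had log2 values of 10.47, 10.48, 10.55 and 10.55 in HFD controls, 10.20, 10.21, 10.48, 10.26 and 10.39 with canagliflozin, and 10.61, 10.55, 10.49, 10.63 and 10.57 under caloric restriction. All 5 canagliflozin arrays lay below all 5 restricted ones, as did 109 genes (0.491%) of all tested, and replicate 3 at 10.48 was the one nearest to them. The difference was -0.26 ± 0.08 from caloric restriction (unadjusted limma p of 0.00429, adjusted p of 0.683) and -0.20 ± 0.08 from HFD controls (adjusted p = 0.731). Of the 10 genes of the CDP-diacylglycerol branch, towards phosphatidylinositol and cardiolipin, 8 were higher in value with canagliflozin than in HFD controls, by at most 0.15. Of the 7 genes that move lipid into droplets and VLDL, 5 were lower, led by Tmem41b, a scramblase of the endoplasmic reticulum, at -0.25 ± 0.10 (unadjusted limma p of 0.0224, adjusted p of 0.711).

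**Figure D5:**
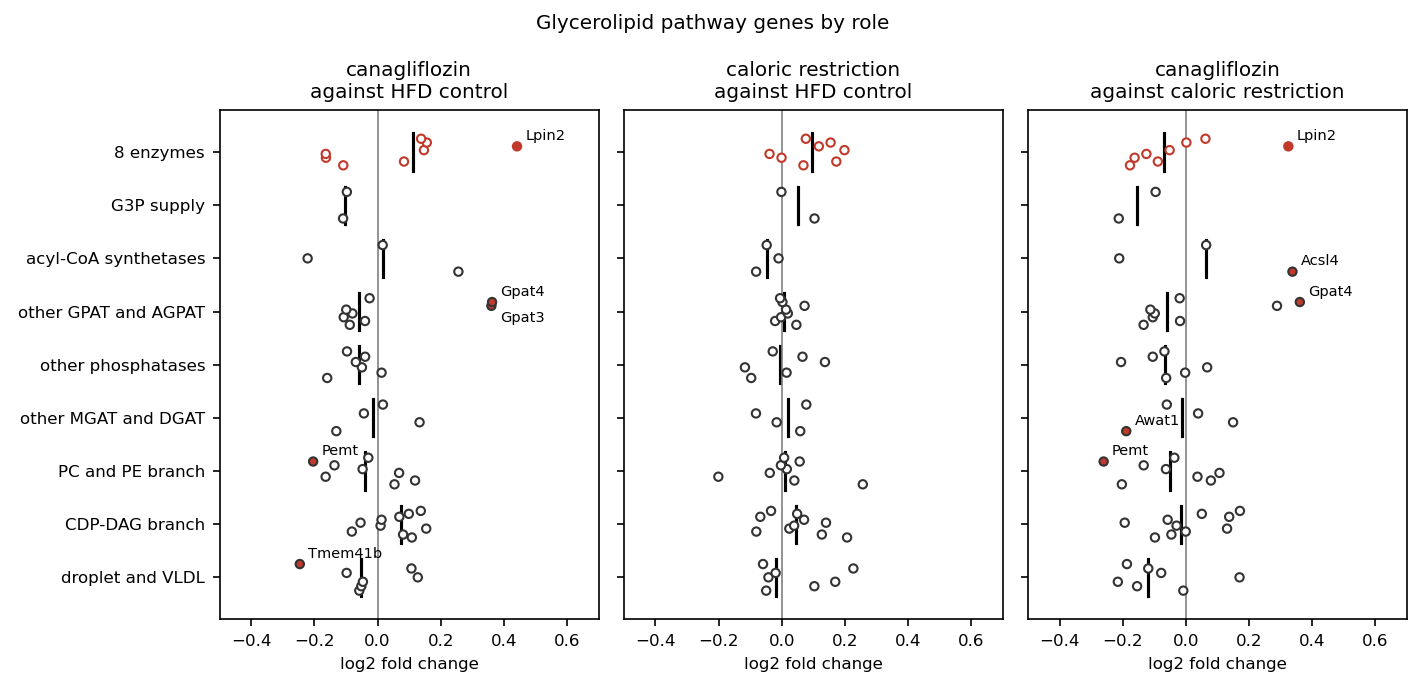
Log2 fold changes (x axis) of the 8 genes (red outline) and of the 48 other measured pathway genes by step (y axis), in a panel for each comparison, with black bars at the medians and filled points where the unadjusted limma p was under 0.05. For canagliflozin against HFD control, Lpin2 is the highest at 0.44, followed by Gpat3 and Gpat4 at 0.36, and Tmem41b is the lowest at -0.25.

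Of the transcriptional regulators known from the literature for these genes, 9 of 10 were measured and none passed limma's adjusted threshold. Ppargc1a, which encodes PGC-1α, had log2 values of 6.08, 6.60, 6.51 and 6.53 in HFD controls, 7.13, 7.52, 6.66, 8.52 and 8.01 with canagliflozin, and 6.56, 6.74, 6.08, 7.26 and 6.89 under caloric restriction. Its lowest value with canagliflozin was in replicate 3, which also had the lowest Lpin2 of that group, and the difference from HFD controls was 1.14 ± 0.29 (limma adjusted p = 0.559). Over the 14 arrays the r of Ppargc1a with Lpin2 was 0.90 and rho was 0.89, and r was 0.80 after removal of group means and 0.86 without the 2 arrays farthest from the median of Ppargc1a. With the second Lpin2 probe set r was 0.83 and rho 0.72, falling to 0.64 after removal of group means and 0.61 without those 2 arrays. With Lpin1 the pooled r was 0.39 and it was 0.48 after removal of group means. These arrays fall into the study's groups, so the values are a description, and a common cause was not tested.

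Srebf1, the regulator of fatty acid synthesis driven by insulin, differed by -0.62 ± 0.24 with canagliflozin from HFD controls and by -0.12 ± 0.24 under caloric restriction. With Gpam, a known target, its r over the arrays was 0.49, its rho 0.48, and r was 0.39 after removal of group means. With Pnpla3, another known target, r was 0.16 and rho 0.37, and r was 0.39 after removal of group means and 0.58 without the 2 arrays farthest from the median of Srebf1. Mlxipl, the carbohydrate-sensing factor ChREBP, differed by -0.32 ± 0.15 with canagliflozin from HFD controls, and its r with Pnpla3 was 0.11 pooled and 0.30 after removal of group means. Pparg differed by 0.40 ± 0.26 in that comparison and had an r of 0.66 with Mogat1, a target in fatty liver, and of 0.65 after removal of group means. Mogat1 is dim, and 172 of 6143 genes had a higher pooled r with it than Pparg had. The remaining 5 regulators, Srebf2, Nr1h3, Ppara, Usf1 and Usf2, had log2 fold changes between -0.09 and 0.05 for canagliflozin against HFD controls.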

How the data were processed

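Liver RNA (250 ng) was labelled by the Affymetrix WT Plus protocol, per the labels' protocols. The values deposited by the authors are on the log2 scale, 1 per probe set, and come from RMA with Affymetrix Expression Console, as the submitters' processing notes state; its version and the genome build were not given in the sources used here. RMA equalises the arrays' distributions, so a global shift in RNA content would not be seen. An array has no depth, so the precision rests on the number of arrays and on the spread between them.

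Of 41345 probe sets, the platform annotation gives 23521 a single symbol, 1814 several and 16010 none, which stay unnamed; 23328 matched RefSeq by gene identifier. The probe set with the highest mean was kept for each of the 1082 genes with several, giving 22180 genes, all tested without a filter. A model of group means over all 14 arrays was fitted by limma 3.58.1 (R 4.3.3), and p values were adjusted by Benjamini-Hochberg over all genes of a comparison with a threshold of 0.05. The fit was tested on simulated data. Each array was taken as 1 mouse, though the labels count mice per group only. The p values set a difference between groups against the spread between these samples within groups. Errors of log2 fold changes are SE, and those of group means SD.

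The members, the pathway, marker and motif lists and the settings were chosen with earlier results of these data known. Named were the 8 genes, up to 2 genes of the smallest p per pathway list and comparison (a selection of which is printed), the listed regulators and, per member, the 2 genes of highest r among genes with a mean log2 value of at least 6. Promoter windows came from RefSeq (GRCm38.p6). Alternatives were a fit of only the compared groups, filters at a mean of 5 or 6, median centring, other variance models, array weights, a replicate block, averaged probe sets per gene, array order and leaving out each array.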

Additional observations from a re-analysis of the deposited data

How the results depend on the processing

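In all settings 0 of the 8 genes passed limma's adjusted threshold, and 17 of their 24 log2 fold changes kept their sign throughout. The other 7 turned in at least 1 setting. For Dgat2, caloric restriction against HFD controls gave 0.0076 with median centring, 0.020 with the replicate block, and -0.052 to 0.049 with single arrays left out. For Lpin1, canagliflozin against caloric restriction gave 0.0067 with array order as a covariate. With single arrays left out, Lpin1 ran from -0.042 to 0.29 for canagliflozin against HFD controls and from -0.18 to 0.13 against caloric restriction. In the same way Mogat1 ran from -0.054 to 0.048 and Pnpla3 from -0.023 to 0.13 for canagliflozin against caloric restriction, where Pnpla3 turned without replicate 3 of canagliflozin or replicate 4 of restriction. For caloric restriction against HFD controls, Gpam ran from -0.15 to 0.075, turning without replicate 3 of either group, and Agpat2 from -0.016 to 0.14, turning without replicate 1 of restriction.

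The count of all genes past the limma threshold moved as well. For canagliflozin against HFD controls it was 1 with filters at a mean of 5 or 6 and 1 with array order, and from 0 to 12 with single arrays left out, with 12 without replicate 3 of the canagliflozin group. For caloric restriction against HFD controls it was 1 with array order and 0 with any array left out. For canagliflozin against caloric restriction it was 0 with only those groups fitted, 0 with a filter at 6, 2 with the replicate block, and from 0 to 16 with single arrays left out, with 16 again without that replicate. The deviations of samples with the same replicate number had a median r of 0.050 (-0.089 to 0.20), with 3 of 13 pairs above 0.1, against a median of -0.019 and 8 of 52 for samples with other numbers. The labels tie the numbers to nothing shared, so such samples were not taken as pairs. These r values cannot decide it, since a shared step need not put every pair above 0.1. In deposited order, HFD replicates 3 and 4 stand beside replicates 4 and 5 of the other groups. Such neighbours had an r of 0.11 (canagliflozin) and 0.077 (restriction) for HFD replicate 3. For HFD replicate 4 it was 0.12 (canagliflozin) and 0.13 (restriction). A block by that order was not tested. With the replicate block Lpin2 stood at 0.42 for canagliflozin against HFD controls, 0.09 for caloric restriction against HFD controls and 0.32 between the treatments. Mogat1 and Pnpla3 were removed by the filters and gave no value there. The second Lpin2 probe set was examined after the data were seen. Signal over background was not analysed and limits the dim genes Mogat1 and Pnpla3.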

Other observations

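Each of the 8 genes was set against the 6142 other genes with a mean log2 value of at least 6 (6143 for Mogat1 and Pnpla3, which are dimmer themselves), and the 2 with the highest r over the 14 arrays are given as a description. For Lpin2 these were Ell2, an elongation factor of RNA polymerase II (r = 0.917), and Pptc7, a mitochondrial phosphatase (0.917), while Ppargc1a was exceeded by 3 genes in all. For Lpin1 they were Garem1 (0.885) and Trib1 (0.861), a pseudokinase. For Gpam they were Aldh1a7 (0.915) and Cd1d1 (0.909), which presents lipid antigens, and for Agpat2 the proteasome assembly factor Psmd5 (0.906) and the mannosyltransferase Alg9 (0.894). For Dgat2 they were Notch2 (0.877) and Cd151 (0.867), and for Dgat1 the mitochondrial proteins Cisd1 (0.804) and Echs1 (0.774). For Mogat1 they were Tcn2 (0.894) and Elmod3 (0.893), and for Pnpla3 Tmlhe (0.746) and Znhit1 (0.735). Taking the highest of 6142 values over 14 arrays yields high r by selection, so they show likeness in these livers and no more.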
